A study of Xenopus tropicalis with 17 samples.

Results

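The transcripts described here encode 9 proteins of the U4/U6.U5 tri-snRNP in embryos of the frog Xenopus tropicalis: prpf8, snrnp200, eftud2, snrnp40, prpf6, txnl4a, prpf31, prpf3 and prpf4. They were chosen by name as proteins of this particle, with earlier results of these data known. All 9 were found among the 26531 genes of the count tables and passed the filter on low counts. RNA-seq libraries were made from polyA-selected RNA of pools of 5 whole embryos at stages 15, 25 and 35. The embryos were wild type, heterozygous for a mutation of sf3b4, or sf3b4 null. Wild type and heterozygous embryos had 2 pools at each stage, null embryos had 2 pools at stages 25 and 35, and stage 15 null embryos had 1 pool, which makes 17 libraries. The labels do not give the allele, and they do not say whether pools of a group came from separate clutches. The p-values therefore measure only the spread between these pools, some of which may be technical.

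The tri-snRNP is a large particle that enters the spliceosome, where introns are cut out of transcripts, as a preformed unit. It joins the spliceosome after U2 snRNP, which carries the SF3b complex and with it the sf3b4 product, has bound the branch site. The U4 snRNA is then unwound from U6, so that U6 and U5 can form the catalytic core. In humans, mutations of PRPF3, PRPF4, PRPF6, PRPF8, PRPF31 and SNRNP200 are known from retinitis pigmentosa, a degeneration of photoreceptors. Mutations of EFTUD2 and TXNL4A are known from syndromes of the face, as are those of SF3B4 itself.

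Library totals ranged from 11714437 to 21639041 counts, and each tri-snRNP gene had at least 176 counts in every library. Levels are given as CPM, the counts of a gene relative to the scaled library size (TMM scaling in edgeR), and they are compared within a gene, since gene lengths were not used. The tissue markers sox2, elavl3, myod1, nkx2-5, foxj1 and sox17a had counts in all libraries. On the first principal component, which held 70.5% of the variance, 1 wild type library of stage 15, the second, had a score of -129.4 and the other stage 15 libraries had scores of -166.2 to -157.3. At stage 35 the null libraries had scores of 128.4 and 135.2, beside 150.3 to 155.6 for wild type and heterozygous ones. The targeted gene sf3b4 stood at 144 and 147 CPM in the wild type pools of stage 25 and at 110.4 and 113 CPM in the null pools. At stage 35 it stood at 83.6 and 107 CPM in wild type and at 74.8 and 80.2 CPM in null pools. The null pools were below the wild type pools at both stages without a call (edgeR adjusted p 0.433 and 0.394). Averaged over the stages by adding stage and genotype in the model, sf3b4 was called lower in null embryos (log2 effect -0.42, SE 0.12, edgeR adjusted p 0.0252). That call was lost without 5 single libraries: the first stage 15 heterozygous (edgeR adjusted p 0.0586), the stage 15 null (0.127), the first stage 15 wild type (0.0671), the first stage 35 null (0.0575) and the second stage 35 wild type (0.0702). The null pools overlapped the heterozygous pools, which had 110.5 and 125 CPM at stage 25 and 93.2 and 64.6 CPM at stage 35. At these stages the level of sf3b4 therefore did not separate null from heterozygous embryos. The single stage 15 null pool had 152 CPM, below the heterozygous pools (177 and 224 CPM) and the wild type pools (287 and 210 CPM), without a test.

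**Figure D1:**
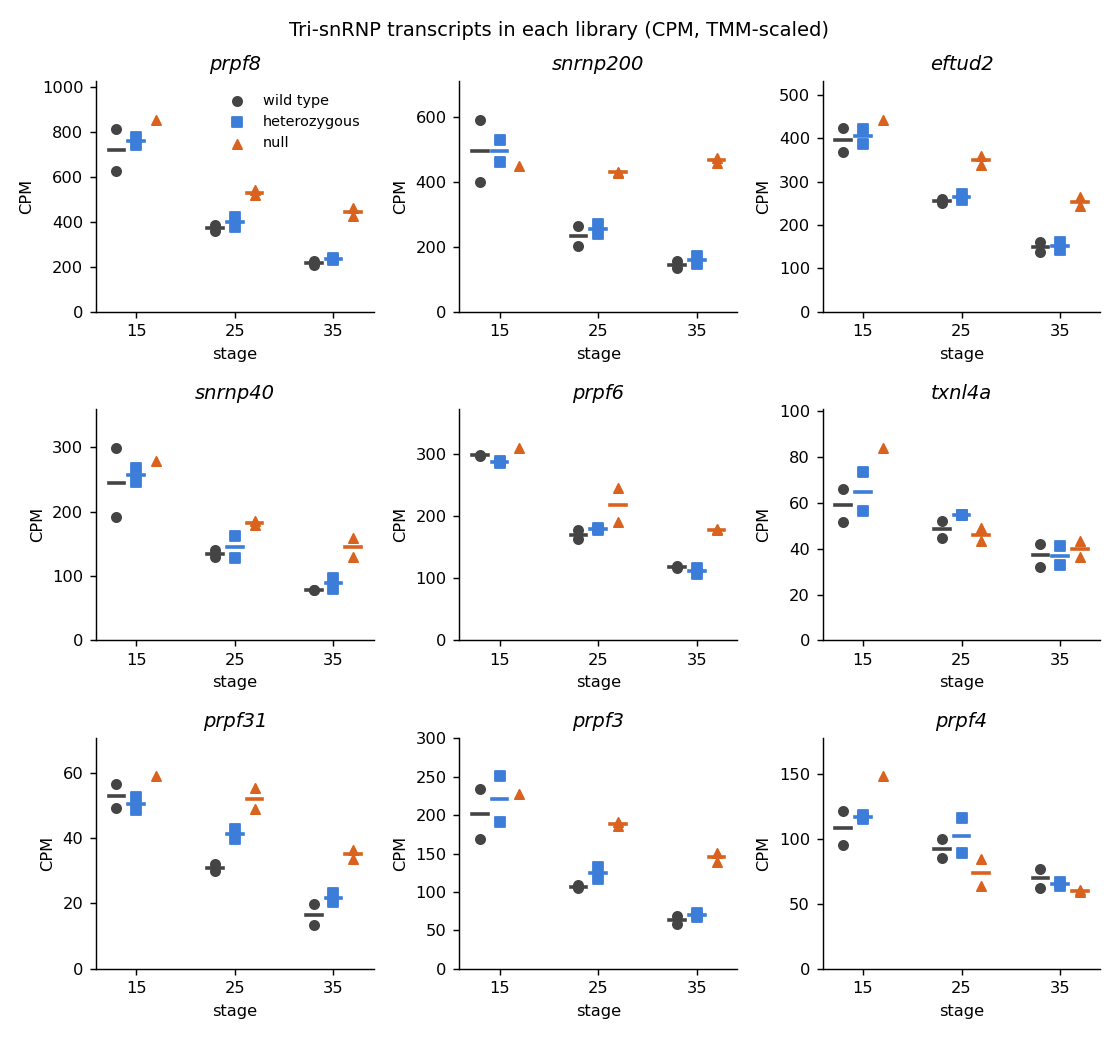
CPM of the 9 tri-snRNP transcripts by stage, with 1 point per library and a bar at the mean of groups with 2 pools; each panel has its own linear axis from 0. At stages 25 and 35 the null pools lie above the wild type pools in 7 genes, while txnl4a overlaps and prpf4 lies lower. Of all genes tested, 20.4% at stage 25 and 27.8% at stage 35 had null pools above wild type pools. In 21.9% and 32.7% they lay below.

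The first question was how the messages of the tri-snRNP stood in null embryos beside wild type ones at each stage. At stage 35, edgeR called 7 of the 9 transcripts higher in null embryos: snrnp200, prpf3, prpf31, prpf8, snrnp40, eftud2 and prpf6. Their fold changes ran from 1.50 to 3.21. The other 2, prpf4 and txnl4a, did not pass the test. At stage 25, snrnp200 and prpf3 were called higher. Over all 17742 genes tested, edgeR called 4.8% higher at stage 35 and 0.789% at stage 25. The median log2 fold change of the 9 genes was 0.88 at stage 35 and 0.45 at stage 25, beside medians of -0.03 and 0.0025 over all genes tested. In whole-embryo pools, fewer cells of a kind and less RNA per cell cannot be told apart, and the same holds for a higher level.

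Among the U5 proteins, snrnp200 had the largest difference. It encodes the RNA helicase (Brr2 in yeast) that unwinds U4 from U6. At stage 35 it stood at 156 and 134 CPM in wild type, 147 and 170.2 in heterozygous, and 458 and 474 in null pools. Both null pools were far above the other 4 libraries, and the log2 fold change against wild type was 1.68 (SE 0.19, edgeR adjusted p 0.000172). At stage 25 it stood at 202 and 263 CPM in wild type and at 431 and 427 CPM in null pools, a log2 fold change of 0.88 (SE 0.19, edgeR adjusted p 0.0316). The pools did not overlap at either stage. Over all genes tested, null pools lay above wild type pools without overlap in 20.4% at stage 25 and 27.8% at stage 35. At stage 35 its edgeR adjusted p was at most 0.00670 when any 1 library was left out.

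The gene prpf8 encodes the large scaffold protein at the heart of the catalytic core. At stage 35 it stood at 228 and 209 CPM in wild type and at 462 and 428 CPM in null pools, so the level in null pools was 2.04-fold that of wild type. The log2 fold change was 1.03 (SE 0.15, edgeR adjusted p 0.000876). At stage 25 the wild type pools had 362 and 385 CPM and the null pools 542 and 519 CPM. The pools again did not overlap, but the log2 fold change of 0.51 (SE 0.15) was not called (edgeR adjusted p 0.109), though the DESeq2 Wald test called it.

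The GTPase that works beside these proteins is encoded by eftud2. Its wild type pools had 137 and 159.9 CPM at stage 35, and its null pools had 265 and 243 CPM. The null pools were higher without overlap, with a log2 fold change of 0.77 (SE 0.14, edgeR adjusted p 0.00418). Without the first stage 35 null pool the call was lost (edgeR adjusted p 0.0616). At stage 25 the values were 251 and 259.5 CPM in wild type and 359 and 339 CPM in null pools. The log2 fold change of 0.45 was not called (edgeR adjusted p 0.136), though the DESeq2 Wald test called it.

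The WD40-repeat protein of U5 is encoded by snrnp40. Its wild type pools had 78.6 and 78.3 CPM at stage 35, and its null pools had 159 and 129.7 CPM. The null pools were higher but differed from each other more than the wild type pools did. The log2 fold change was 0.88 (SE 0.20, edgeR adjusted p 0.0120). The call was lost without the first null pool (edgeR adjusted p 0.142), without the first wild type pool (0.0602) and without the second (0.105). At stage 25 the log2 fold change was 0.44 (edgeR adjusted p 0.335).

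The repeat protein encoded by prpf6 bridges U5 and U4/U6. At stage 35 its wild type pools had 117 and 120.4 CPM and its null pools 179.9 and 177 CPM. These pools were tight and apart, and the log2 fold change was 0.59 (SE 0.14, edgeR adjusted p 0.0185), the smallest of the 7 called higher. It was not called when any 1 of the 4 pools was left out, with edgeR adjusted p values of 0.0918 to 0.131. At stage 25 the null pools differed, at 245 and 190.4 CPM, beside 163 and 177 CPM in wild type (edgeR adjusted p 0.269).

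The small thioredoxin-like protein of U5 is encoded by txnl4a. Its stage 25 pools had 52.1 and 44.8 CPM in wild type and 49.0 and 43.2 CPM in null embryos. At stage 35 they had 42.0 and 32.2 CPM in wild type and 43.6 and 36.6 CPM in null embryos. The groups overlapped at both stages, and the log2 fold changes were -0.07 (SE 0.20) and 0.11 (SE 0.20), with edgeR adjusted p of 0.928 and 0.783. Both changed sign when single pools were left out.

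Of the proteins bound to U4/U6, prpf31 encodes the one that holds the U4 snRNA together with the product of snu13. At stage 35 it stood at 19.9 and 13.3 CPM in wild type and at 33.7 and 36.5 CPM in null pools. The null pools were higher without overlap, with a log2 fold change of 1.08 (SE 0.20, edgeR adjusted p 0.00344). Without the second wild type pool, which was the lowest of all libraries, the log2 fold change was 0.82 and the call was lost (edgeR adjusted p 0.0684). At stage 25 it stood at 29.9 and 32.1 CPM in wild type and at 49.0 and 55.2 CPM in null pools. This log2 fold change of 0.75 (SE 0.19) was not called (edgeR adjusted p 0.0593), though the DESeq2 Wald test called it.

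The genes prpf3 and prpf4 encode partners that bind each other on U4/U6, and their transcripts did not move together. The level of prpf3 at stage 35 was 68.7 and 58.7 CPM in wild type and 151 and 139 CPM in null pools. The log2 fold change was 1.19 (SE 0.18, edgeR adjusted p 0.000998). At stage 25 it was 109 and 105 CPM in wild type and 191 and 186 CPM in null pools, with a log2 fold change of 0.82 (SE 0.18, edgeR adjusted p 0.0316). The pools of prpf3 were tight and apart at both stages. By contrast, prpf4 stood at 62.4 and 76.8 CPM in wild type and at 58.9 and 60.8 CPM in null pools of stage 35. At stage 25 its wild type pools had 99.6 and 85.0 CPM and its null pools 84.2 and 63.8 CPM. The null pools of prpf4 were lower without overlap at both stages, but the log2 fold changes of -0.32 (SE 0.19) and -0.22 (SE 0.19) were not called (edgeR adjusted p 0.491 and 0.514). Over all genes tested, null pools lay below wild type pools without overlap in 21.9% at stage 25 and 32.7% at stage 35.

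The stage 25 calls of snrnp200 and prpf3 were the less firm ones. Without any 1 of the 4 stage 25 null and wild type pools, the edgeR adjusted p was 0.0950 to 0.204 for prpf3 and 0.0596 to 0.289 for snrnp200. The stage 35 null pools enter this comparison only through the shared spread and the TMM scaling. Without the first or the second of them, both calls were also lost. The log2 fold changes were then 0.83 for prpf3 and 0.89 for snrnp200.

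**Figure D2:**
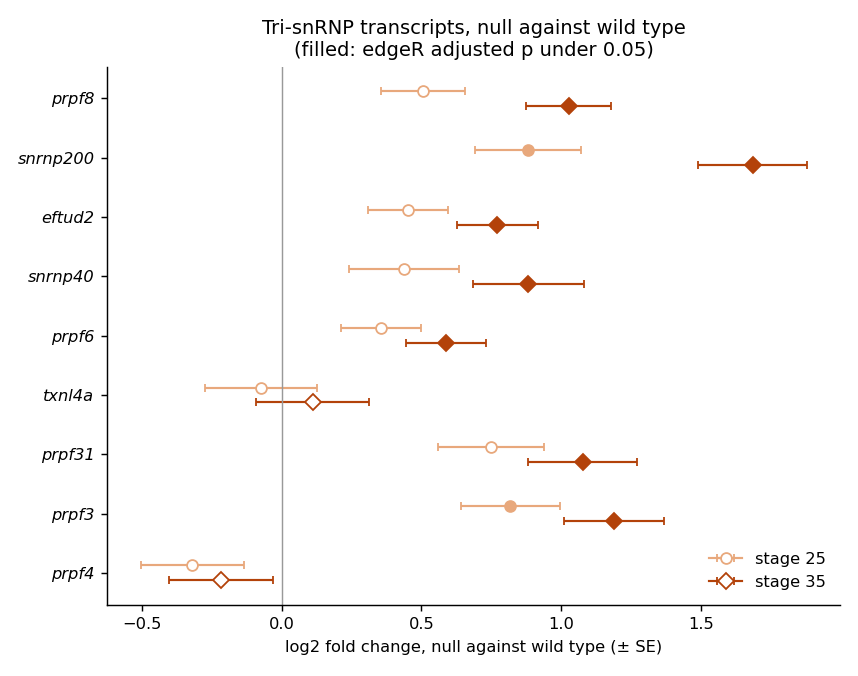
Log2 fold changes of the 9 tri-snRNP transcripts in null against wild type pools at stages 25 and 35, with bars of 1 SE; filled symbols mark an edgeR adjusted p under 0.05. The largest value is that of snrnp200 at stage 35 (1.68), and prpf4 lies below 0 at both stages.

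Ratios of read counts within a library depend neither on library scaling nor on gene length when libraries are compared, and they were taken for 4 gene couples chosen after their values were seen. The ratio of prpf3 to prpf4 counts was 1.09 and 1.24 in wild type pools of stage 25 and 2.26 and 2.92 in null pools. At stage 35 it was 1.10 and 0.764 in wild type, 1.09 and 1.05 in heterozygous, and 2.57 and 2.29 in null pools. The null pools were higher without overlap at both stages. This follows from null pools above wild type in prpf3 and below it in prpf4, so it is not a separate result. At stage 15 the wild type pools had ratios of 2.45 and 1.39 and the null pool 1.54, so a high ratio also occurred in a younger wild type pool. The ratio of snrnp200 to prpf8 was 0.559 and 0.683 in wild type and 0.795 and 0.822 in null pools of stage 25. At stage 35 it was 0.685 and 0.640 in wild type and 0.992 and 1.11 in null pools. In all other libraries it ran from 0.525 to 0.736. The ratio of prpf8 to eftud2 differed less, at 1.45 and 1.48 in wild type and 1.51 and 1.53 in null pools of stage 25. The stage 35 ratios were 1.66 and 1.31 in wild type and 1.75 and 1.76 in null pools. The ratio of txnl4a to prpf6 was 0.319 and 0.253 in wild type and 0.1999 and 0.227 in null pools of stage 25. The stage 35 ratios were 0.358 and 0.268 in wild type and 0.242 and 0.207 in null pools. This ratio was thus lower in null pools at stages 25 and 35. At stage 15 it was higher in the single null pool, at 0.271, than in the wild type pools, at 0.221 and 0.174. No test was made on these ratios.

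**Figure D3:**
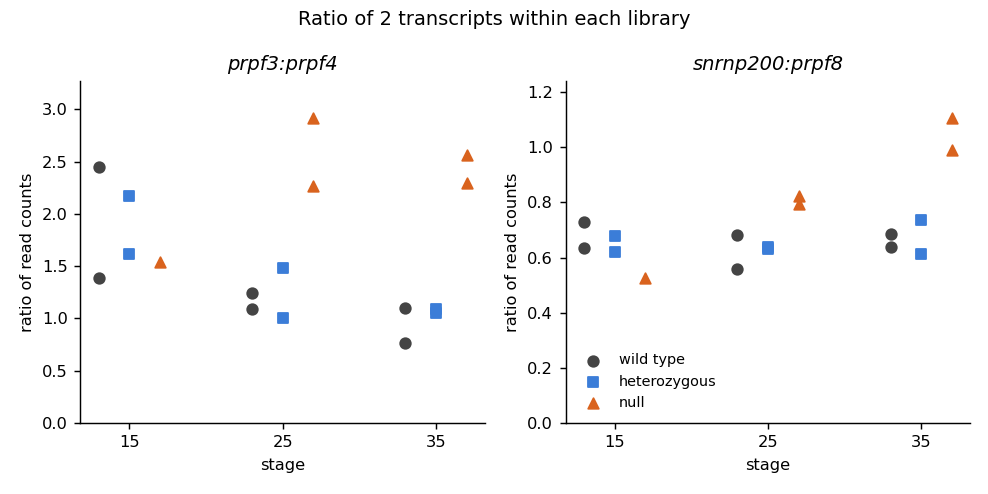
Ratio of the read counts of 2 tri-snRNP genes within each library for 2 of the 4 couples, by stage and genotype, with 1 point per library and linear axes from 0. Null pools of stages 25 and 35 have the highest snrnp200:prpf8 ratios of all libraries (0.795 to 1.11).

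The time course gave the levels against which the null embryos were set. In wild type embryos the tri-snRNP transcripts fell over development. From stage 15 to 25, 7 of the 9 fell, with log2 changes of -1.09 for snrnp200 to -0.64 for eftud2, while prpf4 (-0.23) and txnl4a (-0.28) did not pass the edgeR test (adjusted p 0.329 and 0.274). From stage 25 to 35 the same 7 genes fell again, from -0.90 for prpf31 to -0.52 for prpf6, and prpf4 (-0.41) and txnl4a (-0.39) again were not called (edgeR adjusted p 0.0833 and 0.128). Over all genes tested, 16.9% and 22.5% were called lower in these steps. At stage 35 the wild type mean of snrnp200 was 29.3% of the stage 15 mean, that of prpf8 30.3%, and that of prpf3 31.6%. The means of prpf4 and txnl4a were 64.1% and 63.0%. With the stage 15 wild type library that stood apart, the second, left out, 7 genes were still called lower from stage 15 to 25. Without the first, the fall of snrnp40 was not called (edgeR adjusted p 0.0573). From stage 25 to 35 the fall of prpf6 was not called without the second stage 25 pool (0.0606) or the first stage 35 pool (0.0547), and that of snrnp200 without the second stage 25 pool (0.109) or the second stage 35 pool (0.0747).

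Heterozygous embryos had falls of the same kind. From stage 15 to 25, edgeR called 6 of the 9 lower, with prpf31 (-0.29), txnl4a (-0.24) and prpf4 (-0.19) not called, beside 18.7% of all genes. From stage 25 to 35 all 9 were called lower, with log2 changes of -0.92 to -0.57, beside 22% of all genes. The first count was 5 without the second stage 25 heterozygous pool. The second was 6 without the first stage 25 heterozygous pool and 7 without the second or either stage 35 heterozygous pool.

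In null embryos, edgeR called 2 of the 9 lower from stage 25 to 35, near the background of 21.1% of all genes tested. Of the 9 log2 changes, 8 were below 0. In 7 genes both stage 35 null pools lay below both stage 25 null pools, as in 36.7% of all genes tested. The genes called were prpf31 (log2 change -0.57, SE 0.19, edgeR adjusted p 0.0240) and eftud2 (-0.46, SE 0.14, edgeR adjusted p 0.0173). Both calls depended on single pools. That of prpf31 was lost without the second stage 25 null pool (edgeR adjusted p 0.127), the first stage 35 null pool (0.116) or the second (0.0656). That of eftud2 was lost without the first stage 25 null pool (edgeR adjusted p 0.0721) or the second stage 35 null pool (0.120). The level of snrnp200 in null embryos at stage 35 was 108.7% of that at stage 25, while in wild type embryos it was 62.3%. For prpf8 the values were 83.9% and 58.5%, and for prpf3 77.1% and 59.6%.

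The change of the null effect from stage 25 to stage 35 had its own test. All 9 fitted differences were above 0, from 0.10 for prpf4 to 0.80 for snrnp200, but edgeR called 0 of them, as did the DESeq2 Wald test. An unadjusted p under 0.05 was reached by 2, snrnp200 (log2 difference 0.80, SE 0.27, unadjusted p 0.00897, edgeR adjusted p 0.342) and prpf8 (0.52, SE 0.21, unadjusted p 0.0266, edgeR adjusted p 0.466). Of all 17742 genes tested, 1562 had an unadjusted p under 0.05, and 0.113% were called with a more positive effect at stage 35. A larger effect at stage 35 was therefore not shown for any tri-snRNP gene.

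**Figure D4:**
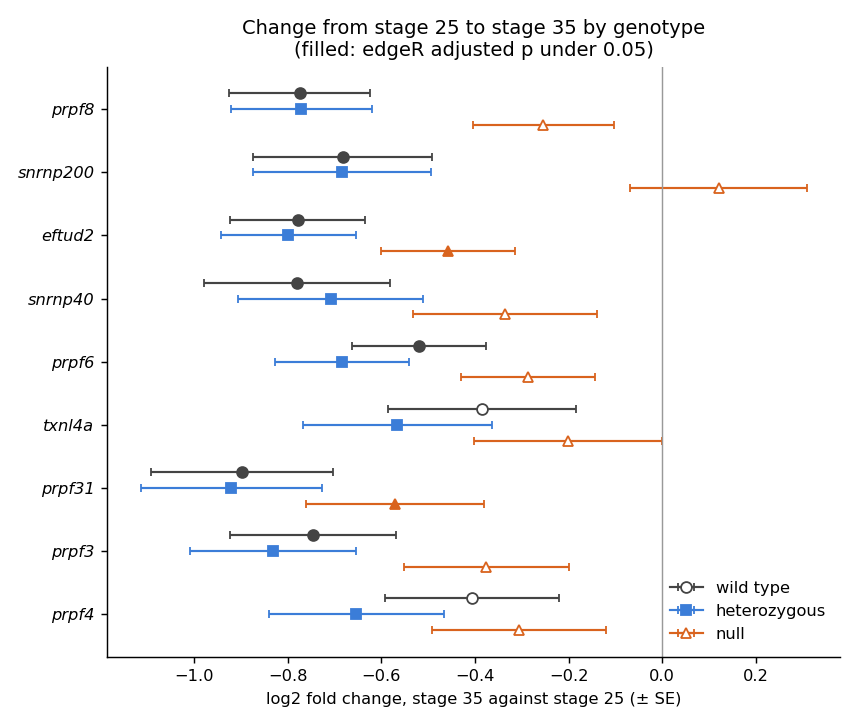
Log2 fold changes from stage 25 to stage 35 in wild type, heterozygous and null pools, with bars of 1 SE; filled symbols mark an edgeR adjusted p under 0.05. In null pools the values run from -0.57 (prpf31) to 0.12 (snrnp200), and each lies above the wild type value of the same gene.

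Since these transcripts fell with stage, the stage 35 null pools were set beside the younger wild type pools of stage 25. In 4 genes, snrnp200, prpf3, prpf8 and prpf31, both stage 35 null pools lay above both stage 25 wild type pools. Over all genes tested 40.4% did so and 38.1% lay below, so a count of 4 of 9 is near the background and is given as a description. The mean of snrnp200 was 200.2% of the stage 25 wild type mean, that of prpf3 135.8%, that of prpf8 119% and that of prpf31 113%. In 3 genes, eftud2 (99.5%), prpf6 (105%) and snrnp40 (107%), the pools overlapped. In prpf4 (64.9%) and txnl4a (82.7%) the null pools were lower. The null pools of stage 35 stood apart on the first principal component, with scores of 128.4 and 135.2. At stage 25 the null pools had scores of -13.7 and -23.73 on it, beside -22.97 and -12.3 in wild type pools. The part of this component in the results was not tested. Of 8 proliferation genes, 0 were called in null against wild type at stage 35 by edgeR. An unadjusted p under 0.05 was reached by 1 of them, and by 4360 of the 17742 genes tested. Their summed level was 1069 to 1217 CPM in null and 1052 to 1264 CPM in wild type pools. Of 7 tissue markers measured, only elavl3, a neuronal gene, was called at stage 35, beside 4.95% of all genes tested called lower. It was lower by 0.79 on the log2 scale (SE 0.21, edgeR adjusted p 0.0266). At that stage 4 log2 fold changes were above 0 and 3 below (list median 0.15). At stage 25 edgeR called 0 of the 7, with 2 values above 0 and 5 below. There myod1, a muscle gene given as an example, was not called. It had 32.0 and 43.2 CPM in null and 21.0 and 23.5 CPM in wild type pools. The part of these markers in the results was not tested either. The call of elavl3 was lost without the first stage 35 null pool (edgeR adjusted p 0.0829), the second (0.208) or the second wild type pool (0.240).

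A second question was whether heterozygous embryos differed from wild type ones. The edgeR test called 0 of the 9 genes at stages 15, 25 and 35, with an adjusted p of 1 for each, and the DESeq2 Wald test also called 0. An unadjusted p under 0.05 was reached by 0, 1 and 0 of them, and by 824, 502 and 235 of the 17742 genes tested. Over all genes the shares called were 0%, 0% and 0.00564%. At stage 25 all 9 log2 fold changes were above 0, from 0.05 to 0.41, and in 4 genes the heterozygous pools lay above the wild type pools without overlap, as they did in 14.7% of all genes tested. The largest was prpf31, with 42.9 and 39.7 CPM in heterozygous and 29.9 and 32.1 CPM in wild type pools, with a log2 fold change of 0.41 (SE 0.19, unadjusted p 0.0453). At stage 35 prpf31 had 20.4 and 23.3 CPM in heterozygous pools, above its wild type pools again (log2 fold change 0.39, SE 0.20, unadjusted p 0.0649). At stage 15 the log2 fold changes ran from -0.06 to 0.14. The heterozygous pools of prpf6 lay below wild type at stages 15 and 35 and above it at stage 25. Tests of the change of the heterozygous effect between neighbouring stages called 0 of the 9 genes (lowest edgeR adjusted p 0.99988), and 0 had an unadjusted p under 0.05.

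Heterozygous pools served as another control for the null pools, in a comparison that shares its null libraries with the one above. At stage 35 edgeR called 7 of the 9 genes higher, beside 3.34% of all genes. They were the genes called against wild type, with log2 fold changes of 0.68 for prpf6 to 1.56 for snrnp200, where wild type as the control gave 0.59 and 1.68. The calls of snrnp200, prpf3 and prpf8 held without any 1 library. Those of prpf31 (edgeR adjusted p 0.0453) and snrnp40 (0.0437) lay near the threshold and were lost in 9 and 12 of the omissions of 1 library. Without 1 library the edgeR adjusted p reached 0.285 for prpf31, 0.318 for snrnp40, 0.0907 for prpf6 and 0.0850 for eftud2. At stage 25 edgeR called 0 of the 9 genes, beside 0.0338% of all genes called higher. An unadjusted p under 0.05 was reached by 5 of them, and by 1707 of the 17742 genes tested. The DESeq2 Wald test called 1 of the 9, beside 181 of all genes. In 7 genes the null pools of stage 25 were above the heterozygous pools, and in prpf4 and txnl4a they were below, as in 19.3% and 21.3% of all genes tested.

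The single stage 15 null pool has no replicate, and no test was made on it. It lay above both wild type pools in 6 of the 9 genes and between them in 3, and 24% of all genes tested lay above both. For txnl4a it had 84.0 CPM beside 66.1 and 51.7 CPM in wild type, and for prpf4 148 CPM beside 95.6 and 122 CPM. For snrnp200 it had 449.7 CPM beside 591 and 399 CPM. The genes in which this pool was furthest above wild type, txnl4a (1.43-fold) and prpf4 (1.36-fold), were thus those not called at the later stages. The wild type pools of stage 15 differed from each other for snrnp40, at 299 and 191 CPM.

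The average null effect came from a model in which stage and genotype were added, over all 17 libraries. It assumes the same null effect at each stage and uses again the libraries of the comparisons above, so its calls are not separate from theirs. The additive model called 7 of the 9 genes higher, beside 5.01% of all genes tested. The log2 effects were 1.02 for snrnp200 (SE 0.20, edgeR adjusted p 0.00356), 0.83 for prpf3, 0.71 for prpf31, 0.66 for prpf8, 0.55 for snrnp40, 0.52 for eftud2 and 0.38 for prpf6. The call of prpf6 (edgeR adjusted p 0.0161) was lost without the first stage 35 null pool (0.0593) or the second (0.0560). The effects of txnl4a (0.15, SE 0.12) and prpf4 (-0.08, SE 0.13) were not called.

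Other proteins of the same particle and of the steps around it were taken from 5 lists. Over all genes tested, edgeR called 4.8% higher and 4.95% lower in null than in wild type embryos at stage 35. At stage 25 it called 0.789% higher and 0.986% lower. Of 7 other tri-snRNP components, 2 were called higher in null embryos at stage 35, with a list median of 0.22. One was sart1, which encodes a protein needed for the tri-snRNP to join the spliceosome, with 126 and 134 CPM in wild type and 362 and 323 CPM in null pools, a log2 fold change of 1.40 (SE 0.17, edgeR adjusted p 0.000251). The other was snu13, the U4 partner of prpf31, with 362 and 223 CPM in wild type and 667 and 626 CPM in null pools (1.14, SE 0.27, edgeR adjusted p 0.0168). The call of snu13 was lost without the first stage 35 null pool (edgeR adjusted p 0.102), the second (0.0770) or the second wild type pool (0.207). The third partner of prpf3 and prpf4, ppih, had 73.3 and 77.1 CPM in wild type and 58.2 and 44.1 CPM in null pools, which was not called (log2 fold change -0.55, SE 0.18, edgeR adjusted p 0.0660). At stage 25 sart1 was the only one of the 7 called (0.75, edgeR adjusted p 0.0361), and it was lost in 7 of 16 single-library omissions (edgeR adjusted p up to 0.229).

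None of the 7 LSM proteins that form the ring at the end of U6 was called by edgeR at stage 35. All 7 log2 fold changes were above 0 (0.02 to 0.78, median 0.33). An unadjusted p under 0.05 was reached by 2 of them, and by 4360 of the 17742 genes tested. Of 6 assembly factors (list median 0.57), edgeR called 3 higher, beside 4.8% of all genes tested. They were sart3, which helps U4 and U6 to pair again (1.22, edgeR adjusted p 0.0441), znhit2 (0.72, 0.0374) and cd2bp2 (0.59, 0.0368). The last 2 work on U5. Each of these calls was lost without several single libraries, with edgeR adjusted p up to 0.348, 0.220 and 0.211. Of 8 proteins that join in the B complex (list median 0.44), in which the tri-snRNP is first bound, prpf4b (0.98), a kinase, and prpf38a (0.93) were called higher. In the same list wbp4 was called lower (-0.77, SE 0.18, edgeR adjusted p 0.0162), beside 4.95% of all genes tested. It was also called lower at stage 25 (-0.85, edgeR adjusted p 0.0316), beside 0.986% of all genes tested. Without 1 library these reached edgeR adjusted p values of 0.276 for prpf4b, 0.218 for prpf38a and, for wbp4, 0.162 at stage 35 and 0.273 at stage 25.

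Of 10 genes of the complex named after prpf19 and its partners, which stabilize the spliceosome once U4 has left, crnkl1 and xab2 were called higher at stage 35. The gene prpf19 itself, which encodes a ubiquitin ligase, was called lower. Over all genes tested, the shares called higher and lower were 4.8% and 4.95%. The level of crnkl1 was 67.0 and 65.2 CPM in wild type and 167 and 152 CPM in null pools, a log2 fold change of 1.27 (SE 0.16, edgeR adjusted p 0.000269). The log2 fold changes of xab2 and prpf19 were 0.90 (edgeR adjusted p 0.00374) and -0.66 (0.0159). The call of xab2 was lost without the first stage 35 null pool (edgeR adjusted p 0.0506), and that of prpf19 without that pool (0.0824), the second null pool (0.142) or the second wild type pool (0.173). The list median was 0.34. At stage 25 edgeR called 0 genes among the LSM proteins, the assembly factors and the list around prpf19. An unadjusted p under 0.05 was reached by 0, 3 and 3 of them, and by 2423 of the 17742 genes tested. No test compared the 9 tri-snRNP genes with these lists.

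**Figure D5:**
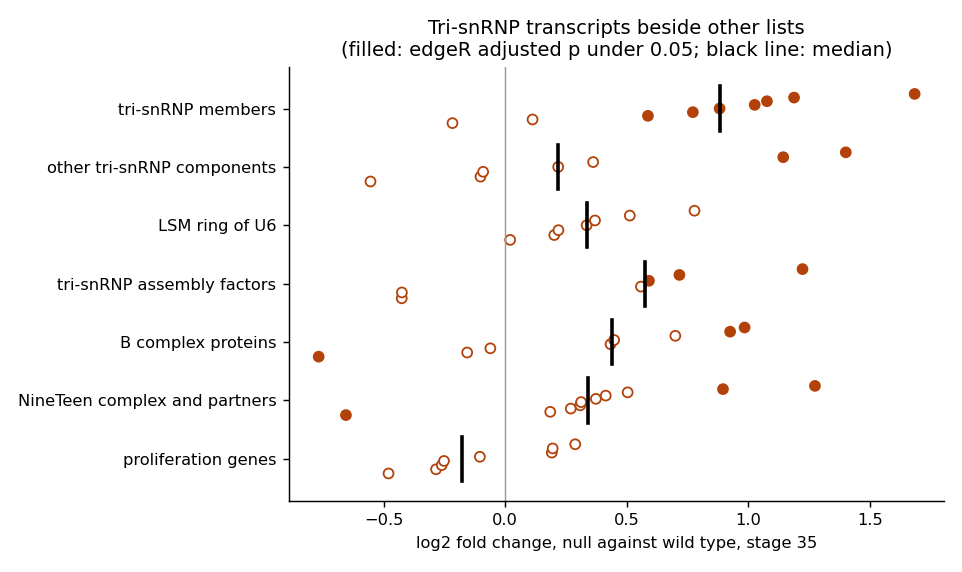
Log2 fold changes in null against wild type pools of stage 35 for the 9 tri-snRNP genes and for 6 other lists, with 1 point per gene, filled at an edgeR adjusted p under 0.05, and a black line at the median. The medians run from 0.88 for the tri-snRNP genes to -0.18 for the proliferation genes.

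The tri-snRNP genes also differed in how closely they followed each other over the libraries, which share stage, depth and scaling. After the mean of each stage was removed, prpf8 correlated with the mean profile of the other 8 genes with r = 0.978, prpf3 with 0.936, eftud2 with 0.919, snrnp40 with 0.899, snrnp200 with 0.890, prpf6 with 0.883 and prpf31 with 0.847 over the 17 libraries. The values were 0.220 for txnl4a and -0.428 for prpf4. Differences between genotypes stayed in these values, so they restate in part the higher levels in null pools given above. No separate result is read from them. Outside the 9, the genes whose log2 CPM was most like the mean profile over the 17 libraries were axin2 (Pearson r 0.988), ets2 (0.988), med14 (0.987), ccnt2 (0.987) and cwc22 (0.987). With other scaling or without 1 library, 2 to 5 of these remained among the 5 most alike. Their log2 fold changes in null against wild type pools at stage 35 ran from 0.57 for med14 to 1.46 for ets2. The null pools entered the choice of these 5 genes, so that direction is built into it and nothing is read from it. All these correlations are descriptions, and those of the 5 genes include the differences between stages.

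In the RefSeq gene table for UCB_Xtro_10.0, the spans of prpf4, prpf6, prpf8 and eftud2 each overlap 1 other gene. It is not stated whether strand was used in counting, so reads of such couples may be shared. The partner of prpf4, slc31a1, had 59.6 to 156 CPM and was not called in null embryos at stage 25 or 35 (log2 fold change -0.10 and -0.11, edgeR adjusted p 0.853 and 0.745). The partners of prpf6, prpf8 and eftud2 had at most 19, 11 and 16 counts in a library.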

How the data were processed

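Raw read counts per gene were deposited by the authors as 1 table per library, with no scaling applied, per the file headers and the values. The submitters' processing notes name bcl2fastq 2.20 and STAR; the counting program, build, annotation and use of strand are not given in the sources used here. Library totals were 11714437 to 21639041 counts. Over the genes tested, pools of a group differed by more than counting error, which was not measured for the tri-snRNP genes alone.

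Genes were kept by edgeR's filterByExpr (minimum count 10, minimum total 15, over the groups with 2 pools), which left 17742 genes with at least 99.9% of each library's counts. Groups were compared by the quasi-likelihood test of edgeR 4.0.16 in R 4.3.3, with TMM scaling over all 17 libraries and 1 coefficient per group in 16 libraries (8 residual degrees of freedom, biological coefficient of variation 20.7%). The stage 15 null pool entered only the additive fit. P-values were two-sided and adjusted by Benjamini-Hochberg over all genes, and calls were made under 0.05. Log2 CPM used a prior count of 2. Each SE is the absolute log2 value divided by the square root of the F statistic of the quasi-likelihood test. The DESeq2 1.42.0 Wald test, other scaling, no filter, single-stage fits, a replicate block and each library left out were alternatives. The scripts were tested on simulated data.

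Members and lists were chosen with earlier results of these data known. Named genes were the members, sf3b4, list genes called against wild type, and the 5 genes most like the members' mean profile. From the proliferation and tissue lists, examples could also be named by smallest p. The gene ppih and the count ratios were named after their values were seen. One listed name, krt12, was not used here. Symbols of all 9 members matched the RefSeq table. Pools of a group differed by more than sampling noise (chi-square per degree of freedom 11.6 to 57.5) and were counted separately.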

Additional observations from a re-analysis of the deposited data

How the results depend on the processing

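Over all settings, no tri-snRNP gene that was called changed its direction. The number of tri-snRNP genes called in null against wild type at stage 25 was 2, but 5 by the DESeq2 Wald test and 0 to 4 when 1 library was left out. Over all genes, that comparison had 315 calls, beside 680 by the DESeq2 Wald test. At stage 35 the count of 7 ran from 4 to 7 without 1 library, against heterozygous pools from 3 to 7, and for null pools from stage 25 to 35 the count of 2 ran from 0 to 2. In each of these comparisons the calls over all genes also varied with the library left out, to below and above those of the full fit. The ranges are thus not particular to the tri-snRNP genes. In null against heterozygous pools at stage 25, where edgeR called 0, the DESeq2 Wald test called 1 and edgeR without a filter on low counts called 1. Over all genes these settings had 181 and 149 calls. Uncalled values were followed gene by gene in null against wild type, in null against heterozygous at stage 35, and in the wild type and null time courses. In the other comparisons their signs were not followed. Among those followed, sign changes occurred only in uncalled values when 1 library was left out. The value of txnl4a ran from -0.167 to 0.0395 at stage 25 and from -0.0662 to 0.290 at stage 35 against wild type. Against heterozygous pools at stage 35 it ran from -0.0342 to 0.282. The value of prpf4 ran from -0.214 to 0.0133 in the additive fit. The cause was not tested.

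Pools with the same number deviated from their group means with correlations of -0.367 to 0.0991, and nothing in the labels pairs them. Whether they share more than a number is not stated. With the replicate block, 0 tri-snRNP genes were called at stage 25 in null against wild type, where all genes had 69 calls. At stage 35 the block left 6 of 7 called against wild type, without prpf6 (edgeR adjusted p 0.0592), and 5 of 7 against heterozygous pools, without prpf31 (0.113) and snrnp40 (0.0701). Over all genes, calls against wild type at stage 35 went from 1730 to 1000 with the block. Those against heterozygous pools went from 1239 to 652. The sf3b4 call of the additive fit was also lost (0.0562). A group left with 1 pool is assumed to vary like the others. Size factors in place of TMM moved the median of all genes by at most 0.0879 on the log2 scale. These genes had at least 176 counts per library, and the part of depth in the results was not tested.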
